A study of Drosophila melanogaster with 24 samples.

Results

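The genes described here are the core and the feedback arm of the Drosophila JAK/STAT pathway, chosen by their FlyBase symbols: dome and et (receptor chains), hop (the kinase), Stat92E (the transcription factor), and Socs36E and Ptp61F (negative regulators). They are 6 of the 17698 genes counted in fat body RNA of Drosophila melanogaster larvae, and all 6 passed the filter on low counts. Tumour-bearing larvae were C855a-Gal4/UAS-scrib-RNAi, in which a Gal4 driver active in epithelia expresses a hairpin RNA against the cell polarity gene scrib. Control larvae were C855a-Gal4/UAS-control-RNAi, so every group carried the same driver. Age is counted in days from egg laying: tumour-bearing larvae were taken on days 4, 5, 8 and 11, and controls on days 4 and 5. Each of these 6 groups has 4 libraries, and a library pools 50 larvae. No control of day 8 or 11 was used here, so at those ages tumour and age cannot be told apart. The sampled tissue is not the tissue in which the tumour grows, and the level of scrib in it checks no label. The labels do not state whether a group's 4 pools were raised in different cultures. The p-values therefore rest on pool-to-pool spread alone, which may be technical.

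In this pathway a secreted Unpaired cytokine (upd1, upd2 or upd3) binds the receptor Domeless, the receptor-bound Janus kinase Hopscotch phosphorylates receptor and STAT, and phosphorylated Stat92E dimers enter the nucleus and activate target genes. Socs36E is such a target and encodes a SOCS-box protein that damps the receptor complex, so its transcript is widely read as a sign of pathway output. In the larval fat body the pathway is known for its response to cytokines from wounds, tumours and blood cells, with the Turandot stress peptides among its targets.

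The 24 libraries held 16074877 to 23352151 counts, and levels are given in CPM, a gene's count relative to the size of its library after TMM scaling. The summed level of 10 fat body markers, such as the Lsp storage proteins, was 467000 to 601000 CPM in the controls, 552000 to 647000 CPM in tumour day 4, 279000 to 432000 CPM in tumour day 5, 96700 to 164000 CPM in tumour day 8 and 57100 to 78200 CPM in tumour day 11. All 10 were detected in each group, as the tissue label calls for. Such a sum follows its most abundant genes, and single markers can move otherwise. The sum of 10 haemocyte markers was 124 to 303 CPM in the controls, 239 to 568 CPM in tumour days 4 and 5, 409 to 542 CPM in tumour day 8 and 808 to 1030 CPM in tumour day 11. Markers of other tissues were uneven between libraries. The sum of 10 gut markers reached 393 and 264 CPM in tumour day 5 replicates 1 and 2, 263 and 192 in control day 5 replicates 1 and 4, 248 in tumour day 8 replicate 1 and 282 in tumour day 11 replicate 3, against 0.827 to 160 in the other libraries. Tumour day 5 replicate 1 also had 131 CPM of 10 testis markers against at most 5.18 in any other library. Control day 4 replicate 2 and control day 5 replicate 3 had 1660 and 1490 CPM of 10 salivary gland markers. In bulk RNA, fewer cells of a type and less RNA per cell cannot be told apart.

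All 6 genes are protein-coding on the minus strand of the BDGP6.54 annotation. The receptor gene dome (FBgn0043903) spans X:19676061-19683518 and et (FBgn0031055) spans X:19672312-19675891, 169 bp apart with no annotated gene between them. The kinase gene hop (FBgn0004864) spans X:11360930-11368098. Stat92E (FBgn0016917) spans 3R:20535323-20552311 and has 11 annotated transcripts, which the gene counts do not separate. Socs36E (FBgn0041184) lies at 2L:18138675-18152417, and Ptp61F (FBgn0267487) at 3L:1342493-1475257, a span that holds other genes but no exon of another gene within its own exons. Exons of et and of Zw, the gene of glucose-6-phosphate dehydrogenase on the opposite strand, share 42 bp. The use of strand in counting is not given in the sources used here, so reads in those 42 bp could belong to either gene.

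Per length of exon, Stat92E and et were the most abundant of the 6 transcripts in each of the 6 groups. The mean level of Stat92E was 32.3 CPM per kb in control day 4, 75.7 in control day 5, and 45.3 to 54.4 in the 4 tumour groups. The short receptor et had 23.0 to 38.9 CPM per kb over the 6 groups. The signalling receptor dome had 3.37 to 6.13 CPM per kb, hop 3.61 to 6.47 and Ptp61F 3.19 to 3.69. Socs36E started among the scarce transcripts, at 2.68 CPM per kb in control day 5 and 4.47 in control day 4, and reached 25.1 in tumour day 11. No test was made of levels between genes.

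**Figure D1:**
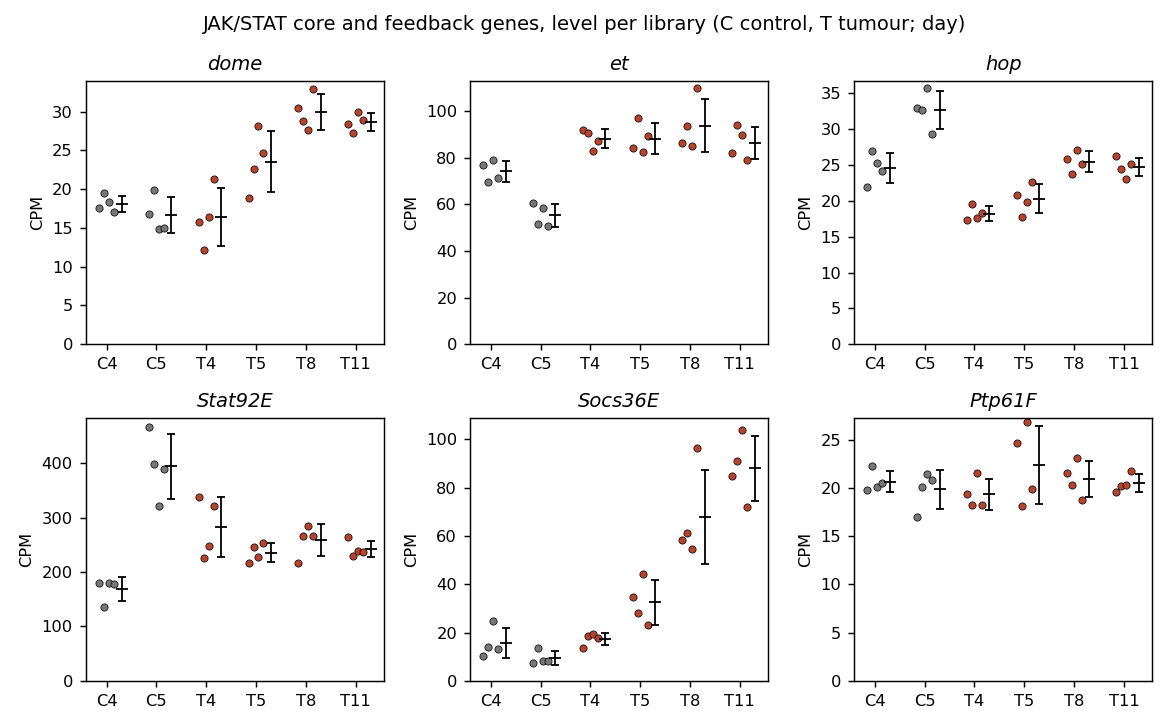
Level of each of the 6 genes in CPM (y axis, from 0) in the 24 libraries by group (x axis: C control, T tumour, the number is the day); points are libraries and the bar is the mean ± SD of 4. Socs36E climbs in the tumour series from 13.7 to 19.4 CPM at day 4 to 71.9 to 104 CPM at day 11, Stat92E is highest in control day 5, and Ptp61F stays between 17.0 and 26.8 CPM.

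How many of the 6 genes changed depended on the comparison, and so did the share of all genes that changed. Changes were tested with edgeR's quasi-likelihood test on 8707 genes, and called genes are those whose p, adjusted by Benjamini-Hochberg over all of them, was under 0.05. At day 4, tumour against control called 3 of the 6 (Stat92E and et higher, hop lower), where 25.2% of all tested genes were called (14.6% higher, 10.5% lower). At day 5 it called 5 of 6 (Socs36E, et and dome higher, Stat92E and hop lower), where 54.9% were called (26.7% higher, 28.2% lower). In controls, day 5 against day 4 called 4 of 6, against 55.0% of all genes. With tumours, day 5 against day 4 called 2 of 6 (44.0% of all genes), day 8 against day 5 called 2 of 6 (26.1%) and day 11 against day 8 called 0 of 6 (3.34%). In the last comparison 0 of the 6 had an unadjusted p under 0.05 and DESeq2 also called 0. In the comparisons across both ages that are used below, tumour day 5 against control day 4 called 47.2% of all genes, tumour day 4 against control day 5 61.3%, tumour day 8 against control day 5 54.4%, and tumour day 11 against control days 4 and 5 60.6% and 57.5%. The counts of the 6 are not far from these shares, so by themselves they do not set the 6 genes apart. The median log2 fold change of the 6 was 0.03 at day 4 and 0.34 at day 5, beside 0.01 and 0.03 for all tested genes.

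The signalling receptor dome rose in the fat body of tumour larvae after day 4 and was not called before. In controls it measured 17.6, 19.5, 18.3 and 17.1 CPM at day 4 and 16.8, 19.9, 14.9 and 15 CPM at day 5. With tumours it measured 15.8, 12.1, 16.4 and 21.3 CPM at day 4 and 18.8, 22.6, 28.1 and 24.7 CPM at day 5. The day 5 tumour libraries were the higher ones, with 1 of them inside the control range. By days 8 and 11 it measured 30.4, 28.8, 27.6 and 32.9 CPM and then 28.4, 27.2, 30.0 and 28.9 CPM, all above every control library. Tumour against control gave a log2 fold change of -0.15 ± 0.14 (SE) at day 4 (adjusted p = 0.48) and 0.50 ± 0.14 at day 5 (adjusted p = 0.0035), and the difference between these, 0.65 ± 0.19, was called (adjusted p = 0.0143). That difference lost its call without control day 4 replicate 2 and day 5 replicate 3, which held salivary gland RNA (0.55, adjusted p = 0.0541). Within the tumour series, dome rose by 0.52 ± 0.14 from day 4 to day 5 (adjusted p = 0.00326). Day 8 against day 5 gave 0.35 ± 0.13 (adjusted p = 0.0612), and without tumour day 5 replicate 3 it gave 0.42 and passed (adjusted p = 0.0323). Over its 6 groups in order of level only 1 of 5 neighbouring steps was called, from control day 4 at 18.1 ± 1.04 CPM (SD, n = 4) to tumour day 5 at 23.5 ± 3.91. That call (adjusted p = 0.0264) ended without tumour day 5 replicate 4 (0.0612) and without control day 4 replicate 1 (0.0572) or 4 (0.0665).

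The gene et (eye transformer, also called latran) encodes a short Domeless-like receptor that lacks the signalling part of the intracellular domain and antagonises the pathway. It fell in controls between days 4 and 5 and did not do so with tumours. In controls it measured 77.0, 69.6, 79.0 and 71.4 CPM at day 4 and 60.6, 51.8, 58.5 and 50.7 CPM at day 5. With tumours it measured 92.0, 90.8, 83.1 and 87.1 CPM at day 4 and 84.1, 97.1, 82.6 and 89.3 CPM at day 5. The day 4 and day 5 tumour libraries all lay above every control library, and days 8 and 11, at 85.0 to 110.0 and 79.2 to 94.3 CPM, did too. The fall in controls was a log2 change of -0.42 ± 0.09 (adjusted p = 0.000412), while with tumours it was 0.00 ± 0.09 (adjusted p = 0.995). Tumour against control was 0.67 ± 0.09 at day 5 (adjusted p = 1.54e-06), and the difference from day 4, 0.42 ± 0.13, was called (adjusted p = 0.0146). It lost its call without tumour day 5 replicates 1 and 2 (0.38, adjusted p = 0.0606).

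At day 4 the call of et was fragile: 0.25 ± 0.09 at an adjusted p of 0.0441. It ended with RLE scaling (adjusted p = 0.0667), without the low-count filter (0.0641), with scaling without the 20 most abundant genes (0.106) and with only the 2 groups in the model (0.187). It also ended without tumour day 4 replicate 1, 2 or 4 (0.0927, 0.08 and 0.0638) and without control day 4 replicate 1, 2 or 4 (0.0561, 0.0963 and 0.109), with log2 fold changes of 0.21 to 0.29 over all alternatives.

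Both receptor chains are counted in the same library, so their ratio does not depend on the scaling. The ratio of et to dome counts was 4.36, 3.56, 4.30 and 4.17 in control day 4 and 5.82, 7.46, 5.05 and 4.09 in tumour day 4. The day 5 controls gave 3.59, 2.60, 3.93 and 3.36 and the day 5 tumour libraries 4.48, 4.29, 2.94 and 3.61. The groups overlapped at both days. The mean log2 ratio differed by 0.42 at day 4 (exact two-sided permutation test, p = 0.114) and by 0.18 at day 5 (p = 0.371), and neither passed after adjustment over the 4 ratio tests (0.229 and 0.371). The geometric mean of the ratio in tumour days 8 and 11 was 3.13 and 3.01.

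The kinase hop was lower with tumours at both shared ages. In controls it measured 21.9, 26.9, 25.3 and 24.2 CPM at day 4 and 32.9, 32.7, 35.8 and 29.4 CPM at day 5. With tumours it measured 17.4, 19.6, 17.6 and 18.3 CPM at day 4 and 20.8, 17.8, 19.9 and 22.7 CPM at day 5. The tumour libraries lay below every control library of their day. Tumour against control gave -0.43 ± 0.08 at day 4 (adjusted p = 0.000613) and -0.69 ± 0.08 at day 5 (adjusted p = 3.91e-07). The difference of -0.26 ± 0.12 was not called (adjusted p = 0.106), although without tumour day 5 replicate 4 it was -0.32 and passed (adjusted p = 0.0471). In controls hop rose by 0.41 ± 0.08 from day 4 to day 5 (adjusted p = 0.000241).

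With tumours hop reached 25.9, 23.7, 27.1 and 25.2 CPM at day 8 and 26.2, 24.5, 23.1 and 25.2 CPM at day 11. These libraries lay above those of tumour day 5, within or close to the range of control day 4 and below that of control day 5. Day 5 against day 4 was 0.16 ± 0.08 (adjusted p = 0.137), and it passed with RLE scaling (0.24, adjusted p = 0.0215) and without tumour day 5 replicate 3 (0.24, adjusted p = 0.0391). It also passed with DESeq2 (0.24, adjusted p = 0.0156) and with scaling without the 20 most abundant genes (0.23, adjusted p = 0.0318). Day 8 against day 5 was 0.33 ± 0.08 (adjusted p = 0.00547), and this call ended without tumour day 5 replicates 1 and 2 (0.26, adjusted p = 0.101). Of the 5 neighbouring steps in its order of levels, tumour day 5 to control day 4 and tumour day 8 to control day 5 were called. The first of these ended without tumour day 5 replicate 3 (-0.19, adjusted p = 0.102).

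Stat92E, the only STAT of the fly, changed sign between the shared ages: it was higher with tumours at day 4 and lower at day 5. In controls it measured 180, 136, 180 and 178 CPM at day 4 and 467, 399, 322 and 389 CPM at day 5. With tumours it measured 338, 226, 247 and 322 CPM at day 4 and 216, 246, 228 and 253 CPM at day 5. Groups did not overlap at either day. Every tumour library of both days was above those of control day 4, and the highest of tumour day 4 reached the lowest of control day 5. Tumour against control was 0.75 ± 0.13 at day 4 (adjusted p = 0.000263) and -0.74 ± 0.13 at day 5 (adjusted p = 6.49e-05), a difference of -1.49 ± 0.19 (adjusted p = 3.5e-06). These 3 calls held under every alternative run, with ranges of 0.66 to 0.85, -0.83 to -0.62 and -1.59 to -1.41.

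The reversal went with a rise in the controls. From day 4 to day 5 Stat92E rose in controls from 168 ± 21.7 to 394 ± 59.0 CPM (SD, n = 4), a log2 change of 1.23 ± 0.13 (adjusted p = 1.32e-07). With tumours it was 283 ± 55.0 CPM at day 4 and 236 ± 17.0 CPM at day 5, a change of -0.26 ± 0.13 that was not called (adjusted p = 0.112) and that passed without tumour day 4 replicate 2 (-0.36, adjusted p = 0.0333). Later it measured 216, 267, 285 and 267 CPM at day 8 and 265, 230, 238 and 237 CPM at day 11. Those libraries overlapped the earlier tumour libraries, and neither step was called (0.13 ± 0.13, adjusted p = 0.497, and -0.09 ± 0.13, adjusted p = 0.846). In the order of levels, control day 4 lay apart at the bottom and control day 5 apart at the top, with the 4 tumour groups between them and no called step among neighbours there.

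**Figure D2:**
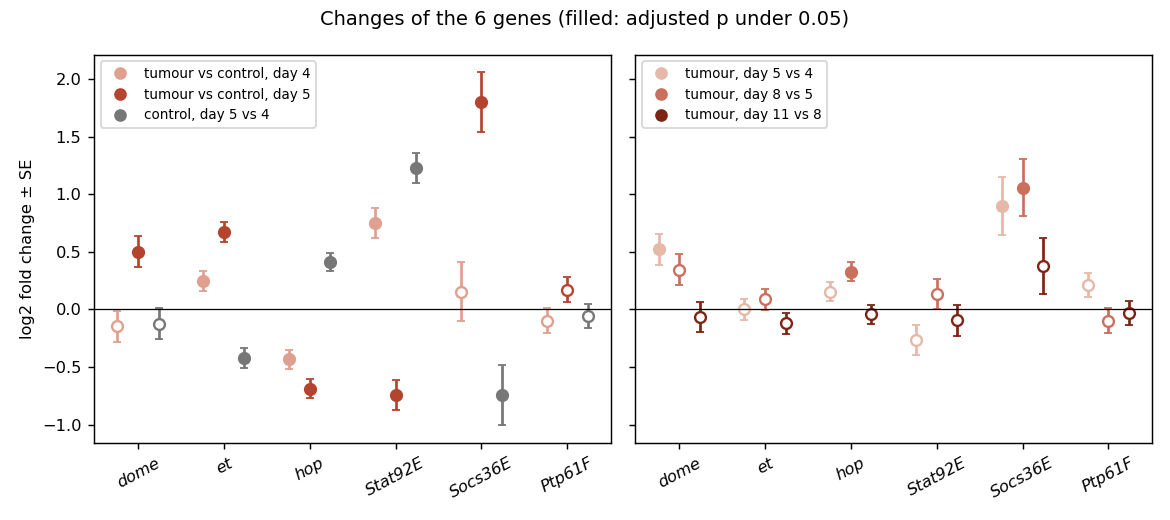
Log2 fold changes ± SE (y axis) of the 6 genes (x axis), on the left for tumour against control at days 4 and 5 and for control day 5 against day 4, on the right for steps within the tumour series; filled symbols have an adjusted p under 0.05. Stat92E is 0.75 at day 4 and -0.74 at day 5, and Socs36E is 1.80 at day 5 and is called at both of the tumour steps up to day 8.

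Socs36E, the feedback inhibitor and pathway target, showed the widest range of the 6, with its highest group mean 9.38 times its lowest, against 1.16 to 2.35 times for the other 5. In controls it measured 10.5, 14.2, 24.6 and 13.3 CPM at day 4 and 7.57, 13.6, 8.16 and 8.21 CPM at day 5. With tumours it measured 13.7, 18.7, 19.4 and 17.8 CPM at day 4 and 34.8, 27.9, 44.3 and 23.1 CPM at day 5. The day 4 groups overlapped, and at day 5 every tumour library was above every control library. Tumour against control was 0.16 ± 0.26 at day 4 (adjusted p = 0.712) and 1.80 ± 0.26 at day 5 (adjusted p = 5.44e-06), a 3.48-fold higher level. The difference of 1.64 ± 0.36 was called (adjusted p = 0.00169) and ranged from 1.33 to 1.86 over the alternatives.

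In the tumour series the level rose again from day 5 to day 8, an age without a control, so tumour and age cannot be told apart there. At day 8 Socs36E measured 58.3, 61.3, 54.6 and 96.5 CPM and at day 11 84.8, 90.9, 104 and 71.9 CPM. Each day 8 library exceeded each day 5 library, while days 8 and 11 overlapped. The steps were 0.90 ± 0.25 from day 4 to day 5 (adjusted p = 0.00615), 1.06 ± 0.25 from day 5 to day 8 (adjusted p = 0.00322) and 0.38 ± 0.24 from day 8 to day 11 (adjusted p = 0.529). Both called steps held in each alternative run, the first at 0.79 to 1.03 and the second at 0.84 to 1.23. Against control day 5, tumour day 11 was 9.39-fold higher (3.23 ± 0.27, adjusted p = 2.16e-09), across a difference in age.

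In controls Socs36E went the other way between days 4 and 5, from 15.7 ± 6.19 to 9.37 ± 2.8 CPM. The log2 change of -0.74 ± 0.26 was called (adjusted p = 0.0209), although the groups overlapped. Without control day 4 replicate 3, the library at 24.6 CPM, it was -0.44 and was not called (adjusted p = 0.142). It also lost its call without control day 5 replicate 1, 3 or 4 (adjusted p = 0.067, 0.0542 and 0.0583) and with only both control groups in the model (0.0679). Leaving out control day 4 replicate 2 with day 5 replicate 3, which held salivary gland RNA, ended it too (-0.72, adjusted p = 0.0637).

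Haemocyte markers moved in part with Socs36E. Their summed level also was highest in tumour day 11, at 808 to 1030 CPM. Of 9 tested haemocyte markers, tumour against control called 3 higher at day 4 and 6 at day 5, where 14.6% and 26.7% of all genes were called higher. In controls 3 rose and 4 fell from day 4 to day 5 (55.0% of all genes called). From tumour day 5 to day 8, 6 rose and 1 fell (26.1% called). From tumour day 8 to day 11, where Socs36E was not called, 6 rises were called (3.34% called). At tumour day 4 the lineage marker gcm was at 0 counts in all 4 libraries. The fat body marker sum fell over the same tumour ages, but single markers did not all follow it. Of these 10 markers, 5 were called higher and 1 lower in tumour against control at day 5. Within the tumour series 3 were called higher and 4 lower from day 4 to day 5, and 1 higher and 7 lower from day 5 to day 8. Neither marker set's part in the Socs36E values was tested. The Socs36E calls at day 5, in the difference and from tumour day 5 to day 8 held without tumour day 5 replicates 1 and 2, which leaves control day 5 and tumour day 8 libraries with gut RNA in place. Without the pair of controls with salivary gland RNA, the calls at day 5 and in the difference held, and that of the control step ended.

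The transcript of the feedback inhibitor was also set against that of the transcription factor within each library. The ratio of Socs36E to Stat92E counts was 0.0585, 0.105, 0.137 and 0.0751 in control day 4 and 0.0163, 0.0340, 0.0254 and 0.0212 in control day 5. With tumours it was 0.0406, 0.0831, 0.0787 and 0.0553 at day 4 and 0.161, 0.113, 0.194 and 0.0912 at day 5. At day 4 the groups overlapped, and at day 5 every tumour library was above every control library. The mean log2 ratio differed by -0.53 at day 4 (exact two-sided permutation test, p = 0.229, adjusted over 4 tests 0.305) and by 2.52 at day 5 (p = 0.0286, adjusted 0.114). A p of 0.0286 is the smallest that 4 against 4 libraries can give, so this difference does not pass after adjustment. The geometric mean ratio was 0.0619, 0.134, 0.256 and 0.36 in tumour days 4, 5, 8 and 11.

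**Figure D3:**
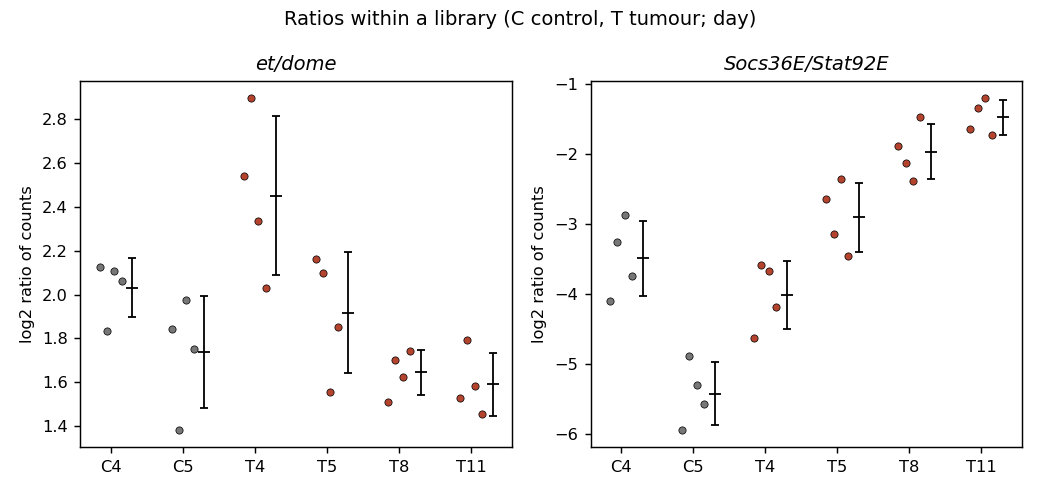
Log2 ratio of counts within each library (y axis) for et to dome on the left and Socs36E to Stat92E on the right, by group (x axis: C control, T tumour, the number is the day); points are libraries and bars the mean ± SD of 4. The ratio of Socs36E to Stat92E has its lowest mean in control day 5 at -5.42 and its highest in tumour day 11 at -1.47, while the groups of the et to dome ratio overlap at days 4 and 5.

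Ptp61F encodes a tyrosine phosphatase that removes phosphate from Hopscotch and Stat92E. Its control libraries measured 19.8, 22.3, 20.1 and 20.5 CPM at day 4 and 17.0, 20.1, 21.5 and 20.8 CPM at day 5. The tumour libraries measured 19.4, 18.2, 21.6 and 18.2 CPM at day 4 and 24.7, 18.1, 26.8 and 19.9 CPM at day 5. All of these groups overlapped, as did tumour days 8 and 11 at 18.8 to 23.1 and 19.6 to 21.8 CPM. None of the 7 comparisons called it. Tumour against control was -0.10 ± 0.11 at day 4 (adjusted p = 0.563) and 0.17 ± 0.11 at day 5 (adjusted p = 0.179), and these values do not show that its level stayed the same. Without tumour day 5 replicate 2 the day 5 value was 0.26 and passed (adjusted p = 0.0436). Tumour day 5 against day 4, 0.21 ± 0.11 (adjusted p = 0.117), passed with RLE scaling (0.29, adjusted p = 0.024). It also passed with DESeq2 (0.30, adjusted p = 0.0169) and with scaling without the 20 most abundant genes (0.28, adjusted p = 0.0287). None of its 5 neighbouring steps in the order of levels was called.

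The ligand genes were close to the detection limit in this tissue, and none of the 3 passed the low-count filter, so they were not tested. Reads of upd1, upd2 and upd3 together were 1, 2, 1 and 2 in control day 4 and 1, 2, 0 and 0 in control day 5. With tumours they were 0, 0, 30 and 1 at day 4, 4, 1, 47 and 4 at day 5, 10, 3, 10 and 7 at day 8, and 2, 8, 13 and 14 at day 11. Replicate 3 stood out at both early tumour ages, with all 3 ligands detected in each, and the other 22 libraries held 0 to 14 reads. The same libraries were highest of their groups in the sum of 6 oenocyte and tracheal markers, at 35.1 CPM against 3.48 to 9.79 at day 4 and 78.1 against 2.9 to 11.9 at day 5. At day 5 replicate 3 also had 428 CPM of 10 muscle markers against 248 to 275. The sum of 10 wing disc markers was 187 CPM there against 122 to 153, but 125 CPM in tumour day 4 replicate 3, within the 109 to 131 of its group. Wing disc sums were 89.1 to 158 CPM in the controls, 162 to 194 in tumour day 8 and 165 to 196 in tumour day 11. The part of these tissues in the ligand reads was not tested. In all, 154 reads came from the 16 tumour libraries and 9 from the 8 control libraries. Without replicate 3 of tumour days 4 and 5, the calls of Stat92E and hop at days 4 and 5 and that of Socs36E at day 5 held. That of et at day 4 ended (adjusted p = 0.0544).

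**Figure D4:**
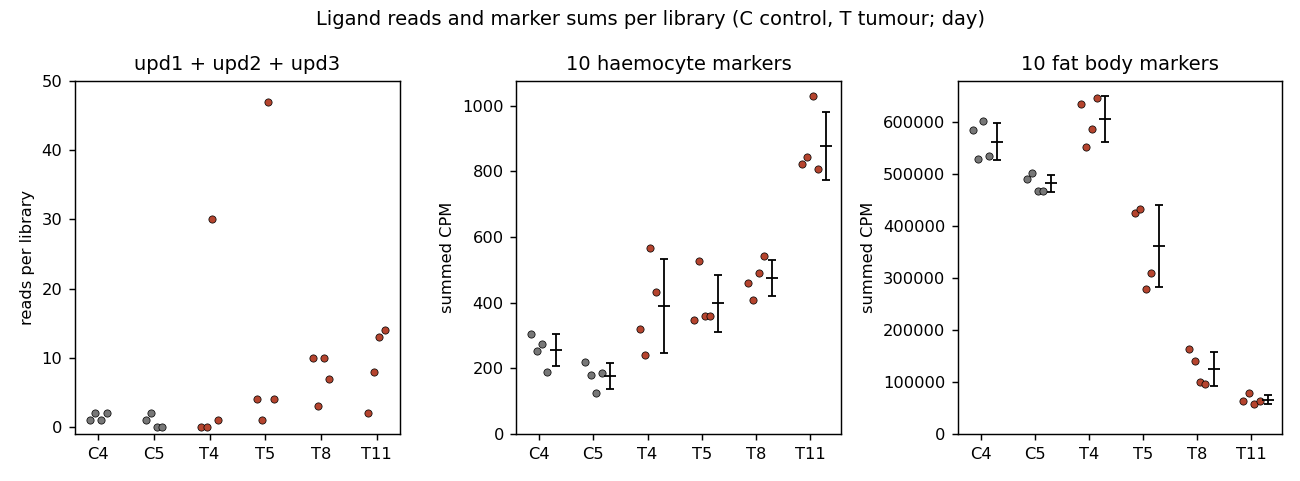
Reads of upd1, upd2 and upd3 together per library (left), and summed CPM of 10 haemocyte markers (middle) and of 10 fat body markers (right), by group (x axis: C control, T tumour, the number is the day); points are libraries and bars, in the middle and right panels, the mean ± SD of 4. Tumour day 4 replicate 3 and day 5 replicate 3 hold 30 and 47 ligand reads against 0 to 14 in the other 22 libraries.

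Among 12 further regulators of the pathway, the called ones at day 4 were mostly lower with tumours (1 higher, 4 lower) and at day 5 evenly split (3 higher, 3 lower). Over all tested genes 25.2% were called at day 4 (14.6% higher, 10.5% lower) and 54.9% at day 5 (26.7% higher, 28.2% lower). The day 5 count therefore does not set the regulators apart. The day 4 split rests on few genes, and the calls of Hrs and Cdk4 in it were fragile, as given below. The largest difference below control was that of Ptpmeg2, a tyrosine phosphatase reported to act on Stat92E. It was 157 to 222 CPM in control day 5 and 29.7 to 35.8 CPM in tumour day 5, a log2 fold change of -2.58 ± 0.13 (adjusted p = 2.23e-12), after -0.53 ± 0.13 at day 4 (adjusted p = 0.00399). Hrs and Stam, which sort receptors at endosomes, were lower with tumours than in controls at day 5. They were lower by 1.67 ± 0.14 (adjusted p = 1.9e-09) and 1.45 ± 0.16 (adjusted p = 9.34e-08) on the log2 scale. At day 4 they were lower by 0.57 and 0.63, and the Hrs call ended with only both groups in the model (adjusted p = 0.0594). As for Stat92E and hop, the controls of these 3 genes rose between days 4 and 5, by 2.27, 1.84 and 1.63. With tumours Hrs and Stam also rose, by 0.74 ± 0.14 and 0.81 ± 0.16 (adjusted p = 0.000184 and 0.000247). The tumour step of Ptpmeg2 was not called (0.22 ± 0.13, adjusted p = 0.171). The endosomal protein gene asrij was higher with tumours at both ages, by 0.53 ± 0.11 and 0.56 ± 0.11 (adjusted p = 0.000738 and 0.00011). From day 4 to day 5 its level fell in controls (-0.53 ± 0.11, adjusted p = 0.000233) and with tumours (-0.50 ± 0.10, adjusted p = 0.000502). Socs16D, another SOCS-box gene, was higher with tumours by 0.64 ± 0.15 at day 5 (adjusted p = 0.00101). The transcriptional repressor gene ken was called higher at day 5 on 113 reads against 5. Controls of day 4 held 49 reads of ken, and its fall to day 5 was called (-3.35 ± 0.67, adjusted p = 0.000257). Its step from tumour day 4 to day 5 was not (0.85 ± 0.52, adjusted p = 0.197). Cdk4, a cyclin-dependent kinase gene, was lower with tumours by 1.01 ± 0.27 at day 4 (adjusted p = 0.00804). That call ended with only both groups in the model (0.0891).

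The 15 listed response genes, of which 11 passed the filter, had 3 called higher and 0 lower at day 4, and 6 higher and 3 lower at day 5. Of all tested genes, 14.6% were called higher and 10.5% lower at day 4, and 26.7% and 28.2% at day 5. Their median log2 fold change was 0.73 at day 4 and 0.66 at day 5, beside 0.005 and 0.03 for all tested genes. The day 4 median is the value of Listericin itself (0.73 ± 1.76, adjusted p = 0.81). That gene had 2 reads in tumour day 4 and 1 in control day 4, so this median is no measure of a common shift. TotC, a secreted Turandot stress peptide, measured 7.95 to 9.04 CPM in control day 4, 12.6 to 50.5 in tumour day 4, 3.83 to 7.09 in control day 5 and 169 to 261 in tumour day 5. It was higher with tumours at both ages without overlap, by 1.91 ± 0.29 (adjusted p = 6.34e-05) and 5.50 ± 0.34 (adjusted p = 2.53e-11). Its means with tumours reached 417 CPM at day 8 and 731 CPM at day 11. TotA was higher with tumours by 0.87 ± 0.27 at day 4 (adjusted p = 0.0202). That call ended without tumour day 4 replicate 1 (0.61, adjusted p = 0.0979) or 4 (0.75, 0.0634). It also ended without control day 4 replicate 2 (0.68, 0.0577) and with only both groups in the model (0.187). TotZ was called at day 5 on 191 reads against 6. The virus-induced gene vir-1 was higher with tumours by 0.99 ± 0.15 at day 4 (adjusted p = 3.4e-05) and was not called at day 5 (0.09 ± 0.14, adjusted p = 0.639). Among the day 5 calls, Tep1 (0.66, adjusted p = 0.0444) and Tep2 (-0.32, adjusted p = 0.04) were fragile. Tep1 ended without the low-count filter (0.0703), Tep2 with RLE scaling (0.0527), and both in several runs with a library left out. The day 5 call of TotA (0.80, adjusted p = 0.0147) ended without tumour day 5 replicates 1 and 2 (0.52, 0.203).

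Other listed targets were lower with tumours than in controls. At day 5 lama was lower by 2.06 ± 0.23 (adjusted p = 9.82e-08) and zfh1, which encodes a zinc-finger homeodomain factor, by 1.95 ± 0.33 (adjusted p = 3.1e-05). Levels of zfh1 were 81.2 to 92.3 CPM in control day 5 and 15 to 38.6 in tumour day 5, and the control libraries of day 4 held only 8.35 to 18.3. Both genes had risen in controls from day 4 to day 5, lama by 0.90 ± 0.22 and zfh1 by 2.71 ± 0.34, as did TotB by 2.94 ± 0.54 and vir-1 by 1.42 ± 0.15. These comparisons share control libraries with those of tumour against control.

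Within the tumour series, calls among the other listed genes became fewer after day 8, as did calls over all genes (44.0%, 26.1% and 3.34% at the 3 steps). Of the 23 other pathway genes tested, 10 rose and 3 fell from day 4 to day 5, 9 rose and 2 fell from day 5 to day 8, and 1 rose and 0 fell from day 8 to day 11. The 11 calls from day 5 to day 8 were 7 without tumour day 5 replicate 2 or tumour day 8 replicate 4, and 3 without tumour day 5 replicates 1 and 2. From day 4 to day 5 TotB rose by 3.36 ± 0.43, TotC by 2.82 ± 0.29 and zfh1 by 1.5 ± 0.34, and TotZ went from 1 read to 191. From day 5 to day 8 the largest called changes among responses were TotB at 3.11 ± 0.32, Tep2, a thioester protein of humoral immunity, at 1.47 ± 0.13, TotZ at 1.44 ± 0.45 and zfh1 at 1.25 ± 0.32. The TotZ call ended without tumour day 5 replicate 2 (1.32, adjusted p = 0.0647) and, at 0.90, without tumour day 8 replicate 4 (adjusted p = 0.174). The zfh1 call ended without tumour day 5 replicates 1 and 2 (0.84, adjusted p = 0.157). The single call from day 8 to day 11, Tep2 at 0.51 ± 0.13 (adjusted p = 0.029), ended without each of tumour day 8 replicates 1, 2 and 3 (adjusted p = 0.113, 0.077 and 0.0824) and of tumour day 11 replicates 1, 2, 3 and 4 (0.0792, 0.0503, 0.0722 and 0.0666).

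**Figure D5:**
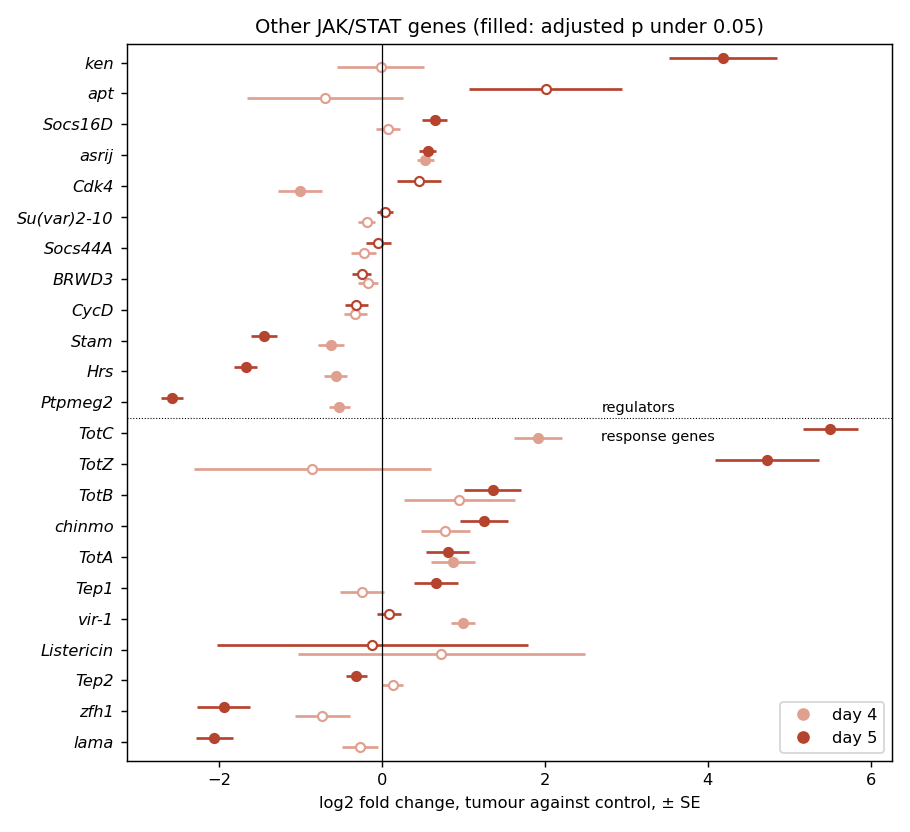
Log2 fold change ± SE (x axis) of tumour against control at day 4 (light) and day 5 (dark) for the 23 other JAK/STAT genes tested (y axis), regulators above the dotted line and response genes below it; filled points have an adjusted p under 0.05. TotC lies farthest to the right at day 5 (5.50) and Ptpmeg2 farthest to the left (-2.58).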

How the data were processed

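The values the authors deposited are raw read counts of 17698 genes in 24 libraries. STAR 2.5.4a and BDGP6 come from the list of tools and builds in the submitters' processing notes. Which program counted the reads, on which annotation and whether by strand is not given in the sources used here. From the counts, edgeR 4.0.16 (R 4.3.3) was run with filterByExpr (8707 genes kept), TMM scaling and a robust quasi-likelihood fit of 6 group means over 24 libraries, with Benjamini-Hochberg adjustment over all tested genes. The biological coefficient of variation was 0.284. The script was tested on simulated counts. A standard error is the log2 fold change divided by the square root of F. Ratios used counts plus 0.5 and exact two-sided permutation tests. CPM per kb divides by the summed exon length in BDGP6.54.

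The 6 genes, the 30 other pathway genes and the marker lists were chosen with earlier results of these data known. Of 114 list entries 2 did not match a gene. Named genes were the 6, the ligands, each regulator called in tumour against control at day 4 or 5, up to 4 called responses with the largest change per comparison, and the 3 genes of at least 10 mean CPM most correlated with each of the 6. No library copied another. Alternatives were RLE scaling, DESeq2 1.42.0, no low-count filter, scaling without the 20 most abundant genes, only the compared groups, a replicate block and each library left out. Those leaving out libraries with upd, gut or salivary gland RNA were chosen after seeing the data.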

Additional observations from a re-analysis of the deposited data

Results flagged for a closer look

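In 3 of the 48 sets of 4 libraries checked (each of the 6 genes and both ratios in each group), 1 library lay far from the other 3, and chance gives about 1 in 20. Stat92E measured 136 CPM in control day 4 replicate 2 against 178 to 180 in the others, and that library is also the one with 1660 CPM of salivary gland markers. Socs36E measured 13.6 CPM in control day 5 replicate 2 against 7.57 to 8.21 in the others. In tumour day 8 replicate 4 it measured 96.5 CPM against 54.6 to 61.3 in the others. What sets these libraries apart was not tested.

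The effect of the tumour differed between days 5 and 4 by edgeR's test of that difference for 4 of the 6 genes, in a comparison that called 28.8% of all tested genes. The log2 effect at day 5 minus that at day 4 was 0.65 for dome, 0.42 for et, -1.49 for Stat92E and 1.64 for Socs36E. Among the 23 other pathway genes tested, 5 differences were positive and 5 negative. Among regulators they were 4.20 for ken, 1.46 for Cdk4, 0.57 for Socs16D, -0.82 for Stam, -1.10 for Hrs and -2.05 for Ptpmeg2. Among response genes they were 5.59 for TotZ, 3.59 for TotC, -0.91 for vir-1 and -1.79 for lama. The difference for Stam lost its call without tumour day 5 replicates 1 and 2 (-0.61, adjusted p = 0.0612). The difference for Socs16D was called at an adjusted p of 0.0481 and ended under most alternatives run, among them RLE scaling (0.0516), with 0.45 to 0.62 over these. The difference for TotZ rests on 2 reads in control day 4, both in replicate 4, and 1 in tumour day 4. It was called at an adjusted p of 0.0373, and without control day 4 replicate 4 it was 2.88 and was not called (adjusted p = 0.902). It also lost its call without the low-count filter (0.0528), without tumour day 4 replicate 1, 3 or 4 (0.0559, 0.0602 and 0.0546), without tumour day 5 replicate 1 or 3 (both 0.0501), without control day 5 replicate 1 (0.053) and, at 5.34 and 5.68, without the libraries with the most upd reads (0.0772) or without tumour day 5 replicates 1 and 2 (0.0575).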

How the results depend on the processing

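Of 714 reruns of the 42 tests on the 6 genes, 671 kept direction and side of the threshold, 22 lost a call, 13 gained one and 8 changed sign. For the counts of the 6 genes called, tumour day 5 against day 4 went from 2 to 4 with RLE scaling, with DESeq2 and with scaling without the 20 most abundant genes, and tumour day 8 against day 5 went from 2 to 1 without tumour day 5 replicates 1 and 2, those of the group with the most gut RNA. The sign changes were all in values that were not called. For et from tumour day 4 to day 5 (0.00), the value was -0.015 without the low-count filter, -0.052 to 0.104 with each library left out (below 0 without tumour day 4 replicate 3 or 4 and day 5 replicate 2 or 4), and -0.043 without tumour day 5 replicates 1 and 2. With each library left out, Ptp61F was -0.096 to 0.013 in control day 5 against day 4 (above 0 without control day 5 replicate 1) and -0.081 to 0.020 in tumour day 11 against day 8 (above 0 without tumour day 8 replicate 3). With a replicate block, 2 of the 6 were called at day 4 (et lost its call) and 9 of 30 neighbouring steps instead of 10, while the other counts did not move. Same-numbered libraries did not all deviate together (correlations of -0.3 to 0.512). In tumour day 5 against day 4 they were 0.019, 0.128, 0.512 and 0.203 for numbers 1 to 4, and in no comparison did all 4 exceed 0.1, so the libraries were treated as unpaired. All genes called at day 4 fell from 2191 to 1065 with only the compared groups, at tumour day 8 against day 5 from 2270 to 1193 without tumour day 5 replicates 1 and 2, and those at day 11 against day 8 varied from 137 to 835. The 30 to 47 ligand reads in single libraries and the 1 to 6 reads of TotZ are too few for more than a count. The paired ratios could not pass, since 4 pairs allow no p under 0.125, nor could 3 against 4 libraries (0.0571).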

Other observations

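Across the 24 libraries, which share groups, ages and depth, levels of some of the 6 genes went together. As descriptions, Pearson's r of log2 CPM was 0.863 for dome and Socs36E, 0.679 for et and Socs36E and -0.679 for et and hop, while Ptp61F and hop gave 0.008. The genes most like Socs36E were Amy-d (0.956), an amylase gene whose near-identical copy makes its count uncertain, ash2 (0.95), a subunit of histone methyltransferase complexes, and CG3328 (0.945). Those most like dome were lbk (0.921), crp (0.918) and Cyp304a1 (0.917), a cytochrome P450 gene. Those most like et were Nep6 (0.913) and Nepl15 (0.908), of the neprilysin family, and NimB2 (0.904), a secreted Nimrod protein gene. For hop they were Hel89B (0.917), RalGPS (0.916) and mnb (0.909), and for Stat92E fok (0.909), a (0.89) and LManII (0.883), a lysosomal mannosidase gene. For Ptp61F, whose level varied least, the highest were lower: nw (0.693), Bap170 (0.582) and Iswi (0.519).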
